A study of Rattus norvegicus with 9 samples.

Results

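AS-tDR-007797 and AS-tDR-008072 are fragments of transfer RNA (tRNA), 2 of the 530 fragments listed in small RNA libraries from rat brain. They were picked from these same libraries for lower levels in rats given a herbal decoction after a brain haemorrhage than in sham-operated rats, with no numeric threshold in the rule. That difference is therefore described here without a test. The rats were male Sprague-Dawley animals, and the tissue sampled 21 days after surgery surrounded the right globus pallidus, with 3 libraries in each of 3 groups. Sham rats received 2.5 μl of saline at the site. Rats with intracerebral haemorrhage (ICH) received 0.5 U of collagenase type VII in the same volume. ICH + BYHWD rats had that haemorrhage and were given Buyang Huanwu Decoction (BYHWD), a prescription of traditional Chinese medicine, into the stomach for 21 days, at a daily dose of 4.36 g/kg. Whether sham and ICH rats were given a vehicle in place of the decoction is not stated in the sources used here. As the labels do not state whether the libraries of a group came from different rats, the spread behind each p-value is that between libraries and may be technical.

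tRNAs carry amino acids to the ribosome. Enzymes such as angiogenin, which is induced by stress, cut mature tRNAs in or near the anticodon loop into long fragments (tiRNAs), and other cuts in mature or precursor tRNAs give shorter tRNA-derived fragments (tRFs). In mammalian cells some tiRNAs are known to hold back the start of translation and some short fragments bind Argonaute proteins. Collagenase breaks down the basement membrane of small vessels, and bleeding into the surrounding brain follows. The files give both fragments by identifier alone. The sources used here pair neither identifier with a parent tRNA, a fragment type or a sequence, so no role is given to them.

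Library totals ran from 530827 tags in sham 3 to 1066616 in ICH 1. Both fragments were above 0 in all 9 libraries, as were 311 of the 530, and their counts ran from 414 to 1391 tags, well above the lowest counts listed in a library, 76 to 149. Levels are given in TPM, which here is the tag count over the library total, scaled by a constant, with no term for length. As the tissue was taken in bulk and the tables hold tRNA fragments only, cell type markers could not be checked, and fewer cells of a type and fewer fragments per cell cannot be told apart.

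AS-tDR-007797 stood highest in sham, lower in ICH and lowest after the decoction. Its level was 1445, 1789 and 1279 TPM in sham 1, 2 and 3. It was 999, 996 and 1260 TPM in ICH 1, 2 and 3. In ICH + BYHWD 1, 2 and 3 it was 518, 1040 and 700 TPM. The sham libraries were all above the others, but sham 3 and ICH 3 lay so close that their 95% Wilson intervals overlapped, at 1187 to 1379 and 1188 to 1336 TPM. ICH + BYHWD 2 stood inside the ICH range and well above the other 2 decoction libraries. Sham averaged 1504 ± 260 TPM, ICH 1085 ± 151 and ICH + BYHWD 753 ± 265 (SD, n = 3).

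AS-tDR-008072 was also highest in sham, but its ICH and ICH + BYHWD libraries stood at similar levels. It was at 1891, 1818 and 1189 TPM in sham 1, 2 and 3. It was at 902, 674 and 1120 TPM in ICH 1, 2 and 3. In ICH + BYHWD 1, 2 and 3 it was at 982, 1092 and 1135 TPM. Sham 3 was again the lowest sham library, and its Wilson interval of 1100 to 1285 TPM overlapped that of ICH + BYHWD 3, 1071 to 1203 TPM. The sham mean was 1633 ± 386 TPM, the ICH mean 899 ± 223 and the ICH + BYHWD mean 1070 ± 79.0 (SD, n = 3). In TPM the ICH + BYHWD mean was below the ICH mean for AS-tDR-007797 and above it for AS-tDR-008072, and the ranges of those groups overlapped for both. Wilson intervals cover counting error only, since reads without molecular identifiers are not independent molecules.

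**Figure D1:**
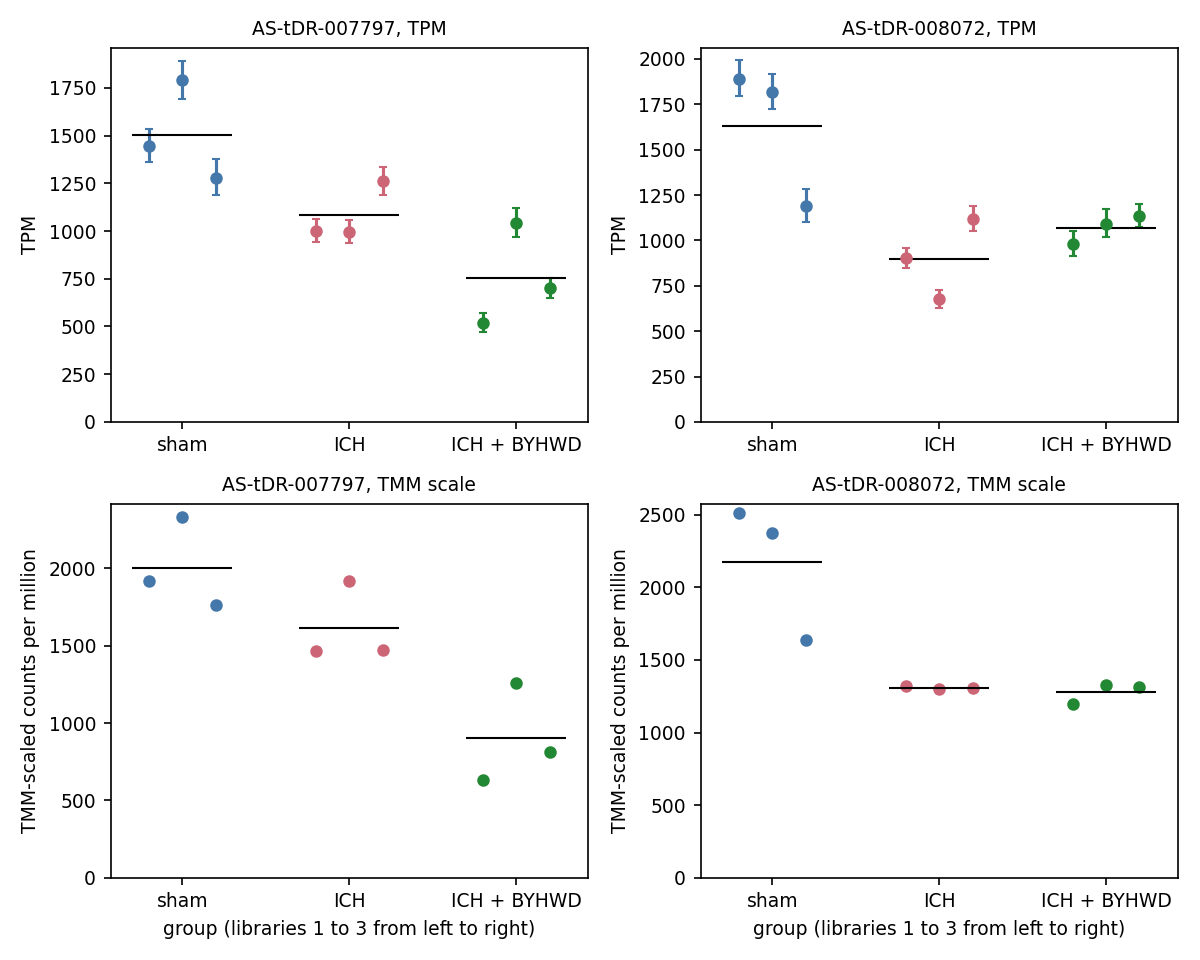
Level of AS-tDR-007797 (left) and AS-tDR-008072 (right) in each library, in TPM with 95% Wilson intervals (top) and in CPM of tested fragments' tags scaled by TMM factors (bottom). Points are libraries and black lines are group means (n = 3). In TPM all 6 haemorrhage libraries lie below the 3 sham libraries for both fragments. On the TMM scale ICH 2 enters the sham range for AS-tDR-007797, and AS-tDR-008072 lies between 1198 and 1325 in all 6.

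Ranks within a library need no scaling between libraries. From 392 to 442 fragments were listed per library, and rank 1 is the highest TPM. AS-tDR-007797 held rank 56 to 86 in sham, 93 to 115 in ICH and 110 to 216 with the decoction. AS-tDR-008072 held rank 48 to 94 in sham, 111 to 144 in ICH and 101 to 127 with the decoction. By rank the sham libraries stood above the 6 haemorrhage libraries in both fragments. The decoction libraries among these picked the fragments, so nothing is read from this separation. How many of all fragments showed it by rank was not counted.

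In TPM, every library of ICH and of ICH + BYHWD was below every sham library for both fragments, a pattern shown by 7 of the 455 fragments tested (1.54%). This pattern contains the contrast that picked them, ICH + BYHWD against sham, which alone was shown by 3.08% of fragments, so nothing is read from either share on any scale. The ICH libraries alone were below all sham libraries in 8.35% of fragments. The separation of AS-tDR-007797 depended on the scale. TMM factors, which bring the libraries to a common scale by the bulk of their fragments, ran from 0.65 in ICH 2 to 1.18 in ICH 3. With them, AS-tDR-007797 was at 1916 CPM of tested fragments' tags in ICH 2, above the 1763 of sham 3, so the groups overlapped. AS-tDR-008072 stayed separate on that scale, at 1198 to 1325 in the 6 haemorrhage libraries and 1638 to 2509 in sham, where 2.2% of fragments had all 6 below sham and 11.9% had the ICH libraries below sham. Of 6 scalings tried, AS-tDR-008072 had all 6 haemorrhage libraries below sham in 6 and AS-tDR-007797 in 3. This tally also contains the contrast that picked them, and all the scalings start from the same tags.

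AS-tDR-008072 was unusually even across the haemorrhage libraries on the TMM scale. Its coefficient of variation over the 6 was 3.72%, beside 3.43% from counting error alone, and a median of 23.5% over the 311 fragments above 0 in all libraries. This was the second lowest of the 311. Over the 3 ICH libraries alone it was 0.995%, under the 3.44% from counting error, but 24.8% in TPM, and it reached 29.9% over the 6 scalings. The evenness varied with the scaling: over the 6 scalings the value for all 6 haemorrhage libraries ran from 3.72% to 20.6% and its place from the lowest ran from 2 to 37 of 311. In TPM it was 17.9%, with a median of 31.3% over all 311. AS-tDR-007797 had a coefficient of variation of 37.5% over the same libraries on the TMM scale and 28.9% in TPM.

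The first comparison concerns the haemorrhage itself. It shares the sham libraries that picked these fragments, so its values are not separate from that choice. With edgeR's quasi-likelihood test over all fragments, the log2 fold change of AS-tDR-008072 in ICH against sham was -0.73 (SE 0.18, 95% interval -1.15 to -0.31), or 0.602-fold. It was the 52nd lowest of the 455 fragments tested and the 8th lowest of the 311 above 0 in all libraries. The unadjusted p was 0.00403 and the Benjamini-Hochberg adjusted p over 455 fragments was 0.458, so the difference did not pass the threshold of 0.05, although 3 of 3 ICH libraries were below all sham libraries. AS-tDR-007797 had a log2 fold change of -0.31 (SE 0.27, interval -0.93 to 0.31) and an adjusted p of 0.732. The median of all fragments tested was -0.019.

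In this comparison edgeR called 0 of 455 fragments (0%), with 24 higher and 17 lower at an unadjusted p under 0.05, and limma-voom called 0. DESeq2 called 15 higher and 10 lower, the lower ones being 2.33% of the 430 fragments it gave an adjusted p. AS-tDR-008072 was among them, with a log2 fold change of -0.68 and an adjusted p of 0.00518, while AS-tDR-007797 was not, at -0.25 and 0.715. Over all settings the edgeR, limma and DESeq2 adjusted p of AS-tDR-008072 ran from 0.00518 to 0.992. The edgeR call turned on sham 3, the library with the fewest tags: without it the log2 fold change was -1.01 with an adjusted p of 0.0407, where 0.835% of fragments were called lower. On only the 311 fragments, also without sham 3, it was -0.85 with an adjusted p of 0.0600. Sham 3 also differed from the other sham libraries over all fragments. Chi-square per degree of freedom between tag counts was 171 with sham 1 and 163 with sham 2, beside 67.3 between sham 1 and sham 2. Between sham 3 and ICH 1 it was 44.4, the lowest of all library pairs. The cause was not tested.

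Rats with a haemorrhage were also compared with and without the decoction, a comparison that shares the ICH + BYHWD libraries that picked them. The log2 fold change of AS-tDR-007797 in ICH + BYHWD against ICH was -0.84 (SE 0.27, 95% interval -1.47 to -0.22), or 0.557-fold. Its unadjusted p was 0.0146 and its edgeR adjusted p was 0.533, so it did not pass the threshold. On the TMM scale 3 of 3 decoction libraries were below all ICH libraries, which 3.74% of fragments showed. In TPM the groups overlapped for both fragments, and 1.32% of fragments were separate in that direction. Of the 6 scalings, AS-tDR-007797 was separate in that direction in 2 and AS-tDR-008072 in 0. DESeq2 gave AS-tDR-007797 an adjusted p of 0.0633, the lowest of all settings, which reached up to 1. Without scaling factors its log2 fold change was -0.48, while the median of all fragments moved from -0.087 to 0.22.

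AS-tDR-008072 had a log2 fold change of -0.033 (SE 0.18, interval -0.45 to 0.39) in ICH + BYHWD against ICH, with an edgeR adjusted p of 0.912. The interval allows a change of up to 0.45 downwards or 0.39 upwards on the log2 scale, and the sign turned with the scaling, at 0.30 without factors. edgeR and limma-voom called 0 fragments (0%) in this comparison, with 20 higher and 10 lower at an unadjusted p under 0.05 in edgeR, and DESeq2 called 5 and 5. Against sham, the contrast used to pick them, the log2 fold changes in ICH + BYHWD were -1.15 for AS-tDR-007797 and -0.76 for AS-tDR-008072. They were the 19th and 34th lowest of the 455 fragments tested, and the 4th and 13th lowest of the 311. On the TMM scale both were separate from sham, as were 7.03% of fragments in that direction. Both fragments were thus low against sham with the decoction, as they were picked to be. AS-tDR-007797 had a lower mean with the decoction than in untreated haemorrhage on both scales. AS-tDR-008072 stood about where it did in ICH on the TMM scale and had a higher mean than in ICH in TPM. Neither fragment's difference from ICH passed edgeR's threshold.

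**Figure D2:**
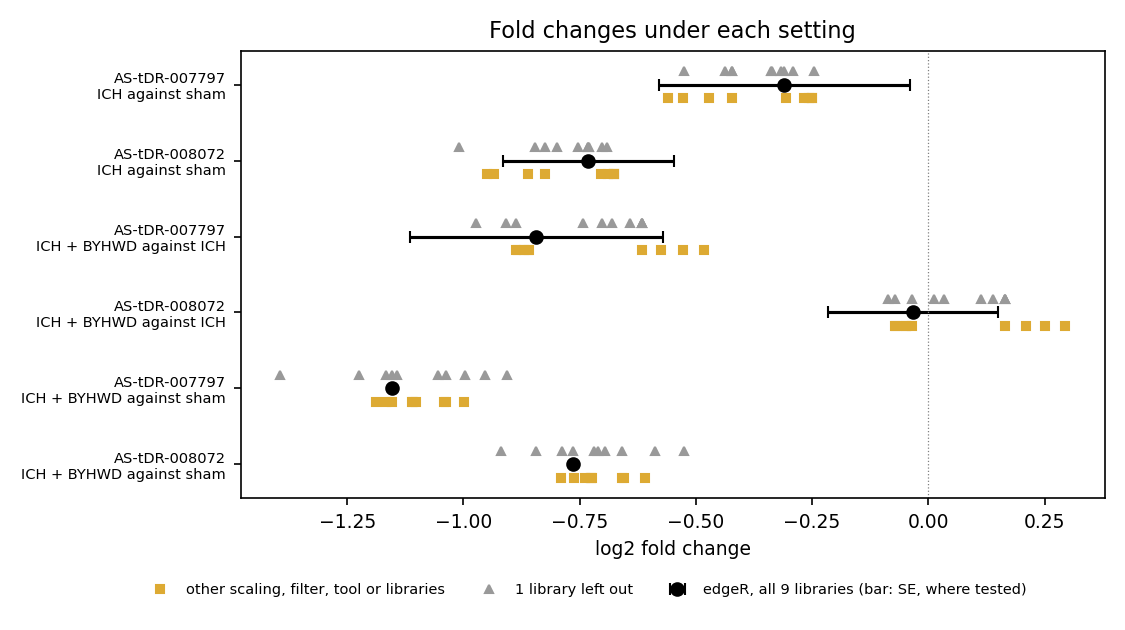
Log2 fold change of both fragments in the 3 comparisons. Black points are edgeR with all 9 libraries, with SE bars where a test was made, squares are other scalings, filters, tools or library choices, and triangles are fits without 1 library. All values lie below 0 except for AS-tDR-008072 in ICH + BYHWD against ICH, which runs from -0.088 to 0.30.

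The ratio of both fragments within a library is free of any scaling between libraries. AS-tDR-007797 was at 0.764, 0.984 and 1.08 times AS-tDR-008072 in sham 1, 2 and 3. In ICH 1, 2 and 3 the ratio was 1.11, 1.48 and 1.12. In ICH + BYHWD 1, 2 and 3 it was 0.527, 0.952 and 0.617. Every ICH library had more AS-tDR-007797 than AS-tDR-008072, and its ratio was above that of every other library, whereas all 3 decoction libraries had less. The log2 ratio averaged -0.10 ± 0.26 over sham, 0.29 ± 0.23 over ICH and -0.56 ± 0.44 over ICH + BYHWD libraries (SD, n = 3).

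The log2 ratio was 0.40 higher in ICH than in sham and differed by -0.86 between ICH + BYHWD and ICH. In each of these comparisons the two-sided exact permutation p was 0.1, the smallest that 20 assignments allow, and it was 0.1 after adjustment over 2 tests. This design cannot reach 0.05. Each of the 2 comparisons shares libraries with the contrast that picked the fragments, so the ratios are not separate from that choice. The mean log2 ratio of ICH + BYHWD differed from that of sham by -0.46, given without a test, and those groups overlapped, since ICH + BYHWD 2 lay within the sham range. That difference was -0.28 without ICH + BYHWD 1 and -0.71 without ICH + BYHWD 2.

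**Figure D3:**
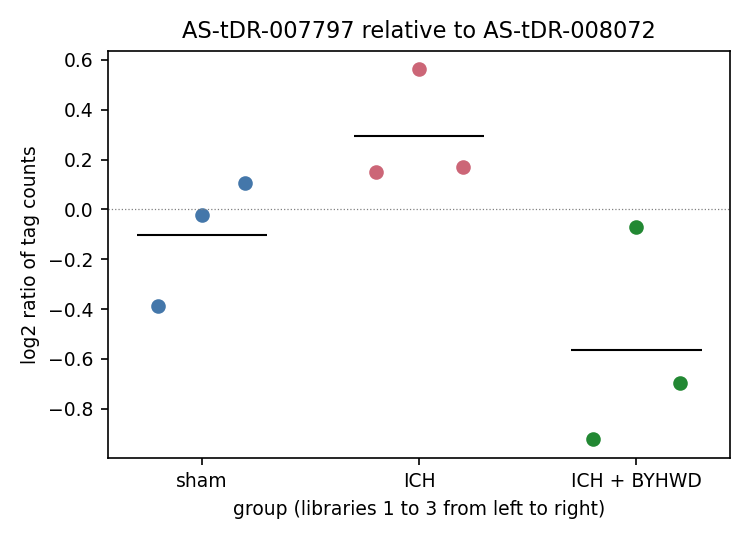
Log2 ratio of the tag counts of AS-tDR-007797 to those of AS-tDR-008072 in each library, with black lines at the group means (n = 3). The 3 ICH libraries lie between 0.15 and 0.56, above all sham and ICH + BYHWD libraries, and the decoction libraries lie between -0.92 and -0.07.

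The order of rows is the only other information the files give on these fragments. Each stood on 4 rows with identical values, and 347 of the 530 fragments stood on more than 1 row. AS-tDR-007797 recurred every 13 rows, each time between AS-tDR-007755 and AS-tDR-007636, and the same 12 fragments stood within 8 rows of it on all 4 rows. AS-tDR-008072 followed AS-tDR-007517 on 2 rows and AS-tDR-000494 on 2, and it was followed by AS-tDR-002015 on 3 and AS-tDR-009636 on 1. Within 8 rows of it on all 4 rows stood 5 fragments, with AS-tDR-000494 and AS-tDR-002015 among them. The sources used here do not say what shared rows stand for, and the window of 8 rows was chosen after the row order was seen.

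AS-tDR-007797 had a lower fold change with the decoction than most fragments that share its rows, and than most of all fragments tested. Of these 12, 8 had a log2 fold change below 0 in ICH + BYHWD against ICH, as had 52.1% of all fragments tested. Their median was -0.17 beside -0.087 for all fragments, and 11 of the 12 lay above AS-tDR-007797. Among all fragments it was the 92nd lowest of the 455 tested and the 37th lowest of the 311 above 0 in all libraries. As it was picked for low decoction levels, nothing is read from its place below its row partners. Under upper-quartile, recovered-total or no scaling only 3 of the 12 were below 0, and 11 still lay above AS-tDR-007797. In the same order the median of the 12 was 0.11, 0.17 and 0.24, beside 0.15, 0.18 and 0.22 for all fragments tested. In ICH against sham the 12 had a median of -0.12. Of them 9 lay above AS-tDR-007797, which was the 121st lowest of the 455 tested. No member of this set passed edgeR's adjusted threshold in these comparisons, and 1, AS-tDR-007636, had an unadjusted p under 0.05 in ICH against sham (log2 fold change -0.47, SE 0.18). The fragment below AS-tDR-007797 in ICH + BYHWD against ICH was AS-tDR-010004, listed at 0 in 2 of the 9 libraries. In TPM both direct neighbours had their lowest mean in ICH, but on the TMM scale AS-tDR-007755 had a log2 fold change of -0.18 (SE 0.26) in ICH + BYHWD against ICH and so was lowest with the decoction. AS-tDR-007755 was at 10044 ± 618 TPM in sham, 7500 ± 1261 in ICH and 8381 ± 1734 with the decoction (SD, n = 3), and AS-tDR-007636 at 1188 ± 199, 800 ± 274 and 1070 ± 184 TPM in the same order.

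As a share of its row set, AS-tDR-007797 held 3.74% ± 0.74 of the set's tags in sham libraries, 3.16% ± 0.30 in ICH libraries and 2.04% ± 0.55 in decoction libraries (SD, n = 3). The decoction libraries ran from 1.42 to 2.48%, below the ICH range of 2.82 to 3.41% and the sham range of 3.24 to 4.59%. AS-tDR-007797 was picked for lower levels with the decoction than in sham, so nothing is read from that separation of its share. This share needs no scaling between libraries, and the set itself held 4.04% ± 0.36, 3.44% ± 0.48 and 3.67% ± 0.52 of all tags in the same order.

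AS-tDR-008072 and the 5 fragments that share its rows had fold changes of opposite sign in ICH against sham. As AS-tDR-008072 was picked for low levels against these same sham libraries, nothing is read from that opposition. All 5 had a log2 fold change above 0 in ICH against sham, also under RLE, upper-quartile, recovered-total and no scaling. Their median was 1.06 beside -0.019 for all fragments, of which 51.2% were below 0 on the TMM scale. The smallest log2 fold change of the 5 was 0.15 (SE 0.38), for AS-tDR-000494. AS-tDR-002015 had the largest fold change of the 5, at 763 ± 359 TPM in sham and 2265 ± 1159 in ICH (SD, n = 3). Its log2 fold change there was 1.88 (SE 0.90). In ICH + BYHWD against ICH, 4 of the 5 were below 0 under the same scalings. On the TMM scale so were 52.1% of all fragments tested. The median of the 5 was -1.14, and it was -0.79 with upper-quartile factors, -0.68 with recovered totals and -0.60 without factors. For all fragments tested it was -0.087, 0.15, 0.18 and 0.22 in the same order. None of the 5 had an adjusted or unadjusted edgeR p under 0.05 in either comparison.

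The share of AS-tDR-008072 in its row set was highest in sham 1 and 2, while sham 3 stood with the haemorrhage libraries. It held 12.8%, 15.2% and 5.16% of the set's tags in sham 1, 2 and 3. It held 3.57%, 1.79% and 6.03% in ICH 1, 2 and 3, and 4.61%, 6.59% and 5.52% in ICH + BYHWD 1, 2 and 3. The sham range thus overlapped both others through sham 3 alone. As AS-tDR-008072 was picked against these sham libraries, nothing is read from its share.

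**Figure D4:**
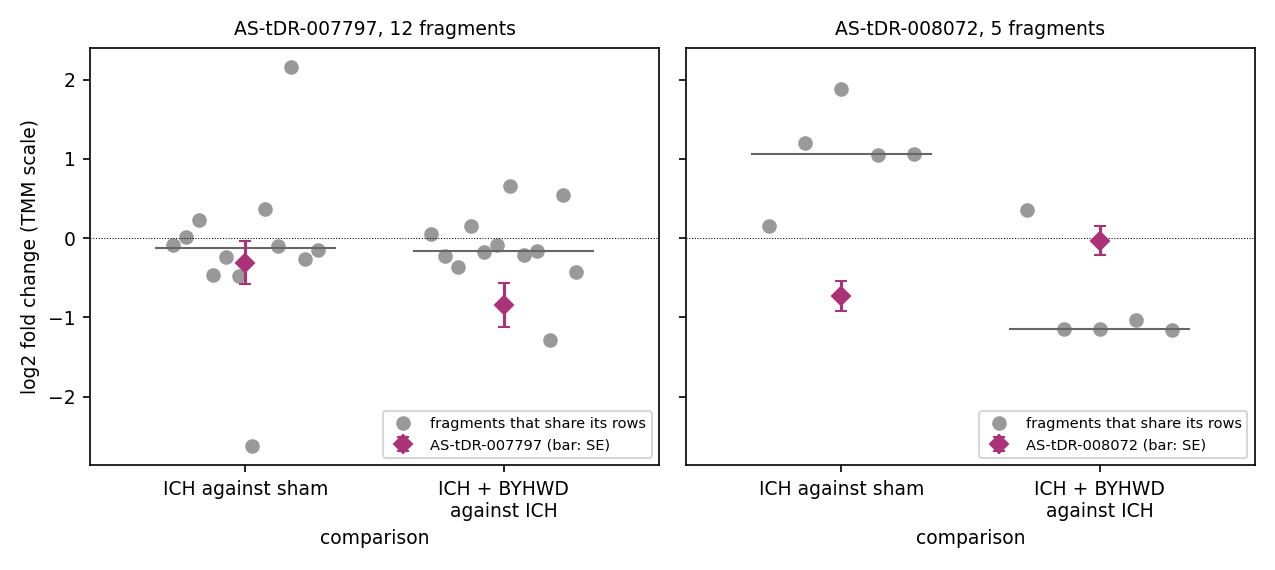
Log2 fold change on the TMM scale of each fragment that shares all rows of AS-tDR-007797 (left, 12 fragments) or AS-tDR-008072 (right, 5 fragments), with grey lines at the medians and diamonds for the named fragment with its SE. In ICH against sham the 5 row partners of AS-tDR-008072 lie above 0 (median 1.06) and AS-tDR-008072 lies at -0.73. The named fragments were picked for low levels with the decoction against these sham libraries, and the row partners were not.

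Of the 4 direct row neighbours of AS-tDR-008072, AS-tDR-009636 had the most similar pattern. It was at 1657, 1503 and 650 TPM in sham 1, 2 and 3. It was at 509, 323 and 884 TPM in ICH 1, 2 and 3, and at 548, 584 and 811 TPM in ICH + BYHWD 1, 2 and 3. Its order of libraries followed that of AS-tDR-008072, with sham 1 and 2 highest and ICH 2 lowest, but sham 3 lay below ICH 3 and ICH + BYHWD 3. Its log2 fold change was -1.07 (SE 0.35) in ICH against sham and -0.052 (SE 0.35) in ICH + BYHWD against ICH, with edgeR adjusted p of 0.507 and 0.931. Of the 310 other fragments above 0 in all libraries, it had the highest Pearson r of log2 TPM with AS-tDR-008072 over the 9 libraries, at 0.972, and also after each group mean was subtracted, at 0.981. On the TMM scale its r was 0.933, after AS-tDR-008095 (0.968) and AS-tDR-008615 (0.934). By Spearman rho of TPM it was at 0.933, level with AS-tDR-008095 and below AS-tDR-008615 (0.983). These values are a measure of likeness, with no test, and libraries share their totals across fragments.

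The next fragments by Pearson r of log2 TPM were AS-tDR-008095 (r = 0.969), AS-tDR-008615 (0.949), AS-tDR-007769 (0.922) and AS-tDR-007308 (0.915). AS-tDR-008095 kept nearly the same ratio to AS-tDR-008072 throughout, between 0.169 and 0.232 in the 9 libraries on counts of 126 to 307. AS-tDR-008615 had a ratio of 0.175 to 0.258. None of these 4 shared the rows of AS-tDR-008072. Within groups, after the means were subtracted, AS-tDR-006872 (0.949), AS-tDR-006195 (0.941), AS-tDR-002163 (0.939) and AS-tDR-009994 (0.934) came after AS-tDR-009636. Of the 5 row partners, AS-tDR-000494 had an r of 0.283 and the others were below 0, down to -0.880 for AS-tDR-002004, which was -0.527 on the TMM scale.

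For AS-tDR-007797 the most similar patterns were those of AS-tDR-007517 (r = 0.929), AS-tDR-007295 (0.924), AS-tDR-007654 (0.888), AS-tDR-007556 (0.886) and AS-tDR-010031 (0.885). AS-tDR-007517, a row neighbour of AS-tDR-008072 and not of AS-tDR-007797, was at 3389 ± 576 TPM in sham, 2843 ± 169 in ICH and 2493 ± 488 with the decoction (SD, n = 3). After the group means were subtracted the order was AS-tDR-007599 (0.939), AS-tDR-007516 (0.935), AS-tDR-010031 (0.927), AS-tDR-007295 (0.920) and AS-tDR-007517 (0.889). AS-tDR-007599 ran between 0.698 and 1.36 times AS-tDR-007797, and it was above it in the 3 ICH libraries and below it in the other 6. The 10 row partners of AS-tDR-007797 above 0 in all libraries ran from -0.811 for AS-tDR-008680, which was -0.180 on the TMM scale, to 0.723 for AS-tDR-010045.

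The 3 identifiers within 10 numbers of AS-tDR-007797 all had a log2 fold change below 0 in ICH + BYHWD against ICH. So had AS-tDR-007797 and 52.1% of all fragments tested, and none of the 3 passed edgeR's threshold. Their median of -0.69, beside -0.087 for all fragments, was the value of AS-tDR-007794 (SE 1.59). AS-tDR-007789 was at -0.29 (SE 0.36). Values under other scalings are not given for these 3. In ICH against sham 2 of the 3 were below 0 and 1 above, beside 51.2% of all fragments below 0. Of the 3, AS-tDR-007804 was at 365 ± 75.1 TPM in sham and 1094 ± 392 in ICH (SD, n = 3). Its log2 fold change was 1.85 (SE 0.63), and the edgeR adjusted p was 0.507. With the decoction it was at 650 ± 533 TPM, a log2 fold change of -1.17 (SE 0.62) against ICH. AS-tDR-007789 was at 294 ± 39.6 TPM in sham, 244 ± 93.3 in ICH and 237 ± 71.0 with the decoction. AS-tDR-007794 was at 223 ± 73.1 TPM in sham and listed at 0 in 1 ICH + BYHWD library. No identifier within 10 numbers of AS-tDR-008072 was listed.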

How the data were processed

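Small RNA of 15 to 50 nt was sequenced in 9 libraries, per the labels' protocols, after treatments that remove tRNA modifications. FastQC, cutadapt and Novoalign 2.07.11 and the human build hg19 are listed in the submitters' processing notes. The sources used here do not say where hg19 entered for rat reads, how fragments were annotated or how tags were counted.

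Per the file headers, the authors deposited a tag count, a whole number without normalization, and a TPM value per fragment. In each file the TPM values equalled the count over 1 library total times 1 constant, and the division gave that total. The 9 tables held 2122 rows for 530 fragments with the same row order, and 1 row per fragment was kept. The lowest TPM above 0 was 134 to 152, so a 0 was read as below a listing minimum.

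Counts were tested with edgeR 4.0.16 in R 4.3.3. The steps were a filterByExpr filter (minimum count 10, by group), library sizes and TMM factors from the fragments left, one robust quasi-likelihood model for the 9 libraries and Benjamini-Hochberg adjustment over the 455 fragments left. DESeq2 1.42.0 and limma 3.58.1 were alternatives. SEs and intervals restate the unadjusted edgeR p. The edgeR step was tested on simulated data. No 2 libraries agreed within sampling noise. Numbers 1 to 3 name libraries in accession order and pair nothing, and the labels name no batch. The members and lists were chosen with earlier results of these data known. Named fragments are the 2 members, direct row neighbours, identifiers within 10, and the 5 most alike per measure, with row partners added after the row order was seen.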

Additional observations from a re-analysis of the deposited data

How the results depend on the processing

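Of the 9 results on folds and the ratio, all kept their direction in every alternative except AS-tDR-008072 in ICH + BYHWD against ICH. Its log2 fold change of -0.033 became 0.30 without scaling factors, 0.25 with recovered totals, 0.21 with upper-quartile factors and 0.17 without the low-count filter, and ran from -0.088 to 0.17 with 1 library left out. The cause was not tested. AS-tDR-008072 in ICH against sham passed the threshold with DESeq2 at -0.68 and without sham 3 at -1.01, and ran from -1.01 to -0.69 with 1 library left out. AS-tDR-007797 ran from -0.56 to -0.25 in ICH against sham and from -0.97 to -0.48 in ICH + BYHWD against ICH, with 0 of 19 alternatives past the threshold in each. Against sham, ICH + BYHWD ran from -1.39 to -0.91 for AS-tDR-007797 and from -0.92 to -0.53 for AS-tDR-008072. The log2 ratio differed by 0.25 to 0.50 in ICH against sham and by -1.10 to -0.68 in ICH + BYHWD against ICH with 1 library left out. Without scaling factors the median of all fragments went from -0.019 to -0.23 in ICH against sham, from -0.087 to 0.22 in ICH + BYHWD against ICH and from 0.063 to 0.19 in ICH + BYHWD against sham. Calls in ICH against sham went from 0 to 15 higher and 10 lower with DESeq2 and to 40 and 4 without sham 3, where 479 fragments were tested, but to 1 and 1 without sham 3 on the 311 fragments above 0 in all libraries. Spearman rho kept 2 of the 5 most alike fragments of AS-tDR-007797 and 3 of AS-tDR-008072, and TMM scaling kept 4 and 5. No paired analysis was possible because the titles share no replicate number. The scaling comparisons, the fit without sham 3 on 311 fragments and TMM-scaled likeness were added after seeing the data.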
